A study of Homo sapiens with 14 samples.

Results

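Treatment with 8 µM PDP was compared with 4 µM in HEK293T cells, a line derived from human embryonic kidney. PDP is a small molecule of the pyridostatin family that binds and stabilizes G-quadruplexes. The comparison used 4 of the 14 libraries of the series, 2 at each dose. All of these cells received PDP 20 min before the thiolated uridine s4U, which was present at 500 µM for 1 h, and acrylonitrile acted on the RNA of all of them. The other 10 libraries were 2 without PDP but labelled in the same way, whose values are given beside those of both doses, and 8 of the separate conversion experiment. Of 57820 genes in the tables, 14280 had a mean of at least 1 FPM in total RNA and 0.5 FPM in labelled RNA over the 4 libraries, and these were tested. FPM is the number of fragments of a gene divided by the size of the library and multiplied by 1000000. Labelled RNA is the fragments that carry a T-to-C mismatch, and unlabelled RNA is the total minus the labelled fragments. Total RNA means all fragments of a gene, in libraries that the study made from polyadenylated RNA. Of the genes tested, 12437 were protein-coding. The sources do not say that replicates came from separate cultures, so the spread that the p-values rest on may be technical.

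A G-quadruplex is a four-stranded structure that guanine-rich DNA or RNA can fold into, and many promoters hold sequences that can form it. Metabolic labelling with s4U marks RNA made during the labelling hour apart from RNA that was already in the cell, because acrylonitrile makes the labelled base read as C. A transcript that turns over fast therefore has a large labelled share, and a stable transcript has a small share. Immediate early genes such as *JUN* and *ATF3* encode transcription factors with short-lived mRNAs that respond within minutes to many stimuli.

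The 4 µM libraries held 22191913 and 22326477 fragments and the 8 µM libraries 22363992 and 18373693, against 9770956 and 10564894 without PDP. In the same order, 89.7% and 88.8%, 88.3% and 86.5%, and 82.6% and 83.0% of these lay in genes. FPM divides by all fragments, so the summed FPM of genes was lowest without PDP. Of 11 HEK293 markers listed, *NEFL* had no record typed as protein-coding and was left out. The other 10 were all above 1 FPM in every library, with a summed level of 1010 to 1034 FPM. Of 8 markers of MCF7 cells, 3 were above that level, *GATA3* and *FOXA1* among them, and 3 were without fragments. None of 8 hepatocyte markers was above 1 FPM, and their summed level was 0.544 to 1.12 FPM. Of 9 blood and endothelial markers listed, 8 were found. Of these 8, 2 were above 1 FPM and 4, *PTPRC* and *CD3E* included, were without fragments.

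The labelled share of all fragments in the genes tested was 13.7% (95% Wilson interval 13.70 to 13.73) and 13.4% (13.39 to 13.42) at 4 µM. At 8 µM it was 12.5% (12.44 to 12.47) and 13.1% (13.05 to 13.08). Both 8 µM libraries lay below both 4 µM libraries, by a mean of 0.801 percentage points (two-sided exact permutation test, p = 0.3333, the lowest possible with 2 against 2 libraries). Without PDP the share was 17.1% and 17.2%. In 2 libraries of cells without s4U whose RNA was treated with acrylonitrile, 7.47% and 7.80% of the fragments carried a mismatch. These libraries belong to the separate conversion experiment, and the background of the PDP libraries was not measured. Some of the labelled fragments may be such background. The intervals cover counting error only. In bulk RNA, fewer cells and less RNA per cell cannot be told apart.

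From 4 to 8 µM PDP, labelled RNA rose for 103 genes (0.721% of those tested) and fell for 519 (3.63%), at an adjusted p under 0.05 in edgeR's quasi-likelihood test. Total RNA rose for 26 genes (0.182%) and fell for 2 (0.014%), and unlabelled RNA rose for 17 (0.119%) and fell for 1 (0.007%). The labelled share of a gene, tested as labelled against unlabelled counts in a single fit, rose for 25 genes (0.175%) and fell for 576 (4.03%). The rises and falls of labelled RNA differed in size. The 103 genes that rose had a median log2 fold change of 0.95, and 45 of them changed over 2-fold. The 519 that fell had a median of -0.37, which is 1.29-fold lower, and 5 of them changed over 2-fold. Over all genes tested the median was -0.09 in labelled, -0.01 in total and 0.01 in unlabelled RNA. Of the 103 genes that rose, 15 were under the labelled filter of 0.5 FPM in the mean of a single dose and so were tested only because the other dose was high, and the same held for 3 of the 519 that fell.

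The number of falls depended on the scale. With the fragments of each library as the scale, 83.4% of the labelled calls were falls. With TMM scaling within the labelled counts, which brings the median change close to 0, 89 genes rose and 57 fell, so that falls made up 39.04% of the calls. With DESeq2's size factors in edgeR, 73 genes rose and 41 fell. DESeq2 itself, which differs in its test as well as its scale, called 14 rises and 1 fall. Each library mattered to the count: without replicate 1 or 2 of 4 µM 39 and 46 genes rose and 92 and 184 fell, and without replicate 1 or 2 of 8 µM 57 and 59 rose and 186 and 249 fell.

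**Figure D1:**
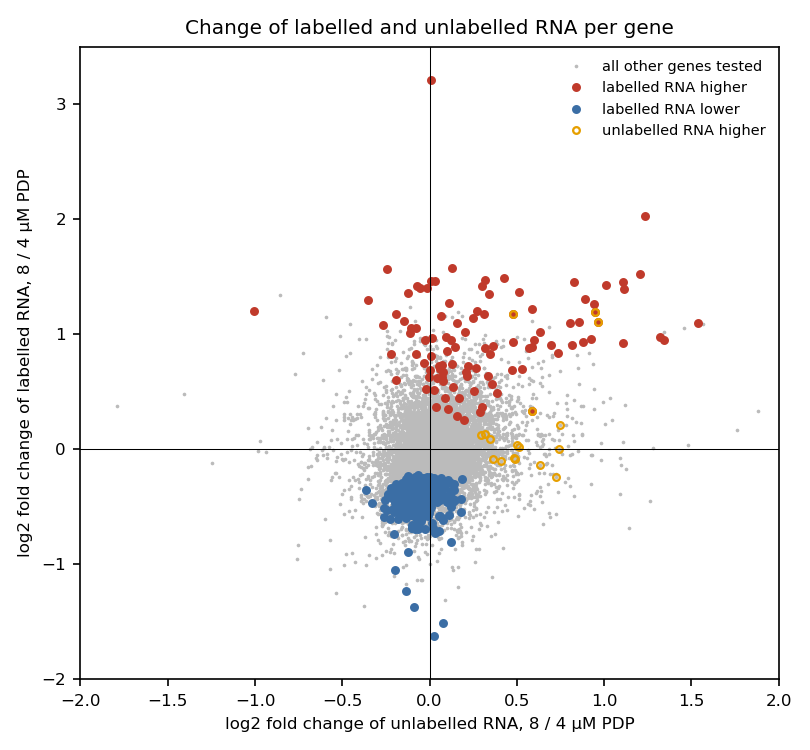
Log2 fold change of unlabelled RNA (x axis) and labelled RNA (y axis) between 8 and 4 µM PDP for each gene tested. The 103 genes with higher labelled RNA (red) reach a log2 fold change of 3.21, the 519 with lower labelled RNA (blue) lie below 0 by a median of 0.37, and the 17 with higher unlabelled RNA are ringed in yellow. Of the genes, 2 with no call lie outside the axes.

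*JUN*, which encodes a subunit of AP-1, had the lowest p of all rises in labelled RNA. The gene spans positions 59246465 to 59249785 of chromosome 1 (GRCh37, as all gene positions here). Its labelled RNA was at 376 and 406 FPM with 4 µM and at 927 and 841 FPM with 8 µM. The unlabelled RNA of *JUN* was at 253 and 281 FPM with 4 µM and at 382 and 361 FPM with 8 µM. Both readouts were higher in both 8 µM libraries, and the libraries without PDP lay lower still, at 162 and 164 FPM labelled and 88.5 and 98.5 FPM unlabelled. The log2 fold change of *JUN* was 1.18 ± 0.07 (SE) in labelled RNA (edgeR adjusted p = 1.76e-53) and 0.48 ± 0.06 in unlabelled RNA (edgeR adjusted p = 0.000103). Its labelled share rose from 59.8% and 59.1% to 70.8% and 69.9%.

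*DUSP1*, a phosphatase that inactivates MAP kinases, lies on chromosome 5 from 172195093 to 172198198. Its labelled RNA was at 27.5 and 31.4 FPM with 4 µM and at 62.3 and 64.7 FPM with 8 µM, a log2 fold change of 1.11 ± 0.08 (SE). The unlabelled RNA of *DUSP1* was at 7.93 FPM in both 4 µM libraries and at 14.3 and 16.8 FPM with 8 µM. Both kinds of RNA moved together, and the labelled share was 77.6% and 79.9% with 4 µM and 81.4% and 79.4% with 8 µM (edgeR adjusted p = 0.634).

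*ATF3*, a stress-responsive factor of the ATF family on chromosome 1 from 212738676 to 212794119, had 7.84 FPM of labelled RNA in both 4 µM libraries and 15.7 and 16.1 FPM with 8 µM. Its unlabelled RNA was at 10.8 and 11.6 FPM with 4 µM and at 12.7 and 13.0 FPM with 8 µM. Labelled RNA of *ATF3* passed the test, with a log2 fold change of 1.02 ± 0.12 (SE), and unlabelled RNA did not, with 0.20 ± 0.12 (edgeR adjusted p = 0.958). The difference between the kinds passed as well, as the labelled share went from 42.1% and 40.4% to 55.3% in both libraries (edgeR adjusted p = 6.79e-05).

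Immediate early genes and further regulators with short-lived mRNAs made up a list with 44 members tested. Of these, 7 rose in labelled RNA, 5 in total RNA and 5 in unlabelled RNA, where 0.721%, 0.182% and 0.119% of all genes rose, and 0 fell in any of the 3 (edgeR). The median log2 fold change of the list was 0.06 in labelled, 0.20 in total and 0.29 in unlabelled RNA, and 39 of 44 members had a value above 0 in unlabelled RNA, against 52.8% of all genes. Beside *JUN*, *DUSP1* and *ATF3*, labelled RNA rose for *EGR1*, a zinc finger factor of the early growth response, *HES1*, a repressor downstream of Notch, *JUND*, a relative of *JUN*, and *DUSP8*, another MAP kinase phosphatase. *EGR1* was at 2.57 and 2.87 FPM of labelled RNA with 4 µM and at 5.14 and 4.90 FPM with 8 µM. *HES1* was at 44.4 and 41.7 FPM against 52.9 and 55.3 FPM, and *JUND* at 47.1 and 52.2 FPM against 66.4 and 68.6 FPM. *DUSP8* was at 8.65 and 10.5 FPM against 13.1 and 14.5 FPM, and it overlaps *KRTAP5-AS1* on the other strand, whose labelled RNA rose too. The paper describes the libraries as directional. The sources do not say whether fragments were counted by strand, so the reads of this pair cannot be told apart. Of the 7 rises, 7 kept their call with TMM scaling and 6 with a GC spline for each library, where *HES1* had an edgeR adjusted p of 0.0506.

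The list is not uniform. *MYC* was at 232 and 223 FPM of labelled RNA with 4 µM and at 233 and 252 FPM with 8 µM (edgeR adjusted p = 0.591), while its unlabelled RNA rose from 283 and 272 FPM to 338 and 369 FPM. *ZFP36L2*, which promotes the decay of AU-rich mRNAs, had 96.5 and 99.3 FPM of labelled RNA with 4 µM and 88.5 and 93.7 FPM with 8 µM, and 106 and 96.1 FPM of unlabelled RNA against 130 and 138 FPM. The labelled share fell for 5 members of the list, *MYC*, *ZFP36L2*, *MCL1*, *IER5* and *PIM1*, and rose for 4, *JUN*, *ATF3*, *DUSP8* and *JUND*. Over all genes tested the share fell for 4.03% and rose for 0.175%. With TMM scaling the 4 rises kept their call and 2 falls did, those of *IER5* and *ZFP36L2*.

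Outside the list, *SOX4*, a developmental transcription factor named after its values were seen, went from 138 and 147 FPM to 213 and 231 FPM of labelled RNA, a log2 fold change of 0.64 ± 0.07 (SE). *PMAIP1*, which encodes the pro-apoptotic BCL-2 family protein NOXA, went from 5.002 and 6.14 FPM to 8.32 and 8.16 FPM. Of 24 p53 target genes tested, *PMAIP1* rose and *PHLDA3* fell in labelled RNA, and of 17 BCL-2 family genes *PMAIP1* alone passed. Over all genes tested, 0.721% rose and 3.63% fell. *PMAIP1* had an edgeR adjusted p of 0.00868 with the library scale and 0.0873 with a GC spline.

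**Figure D2:**
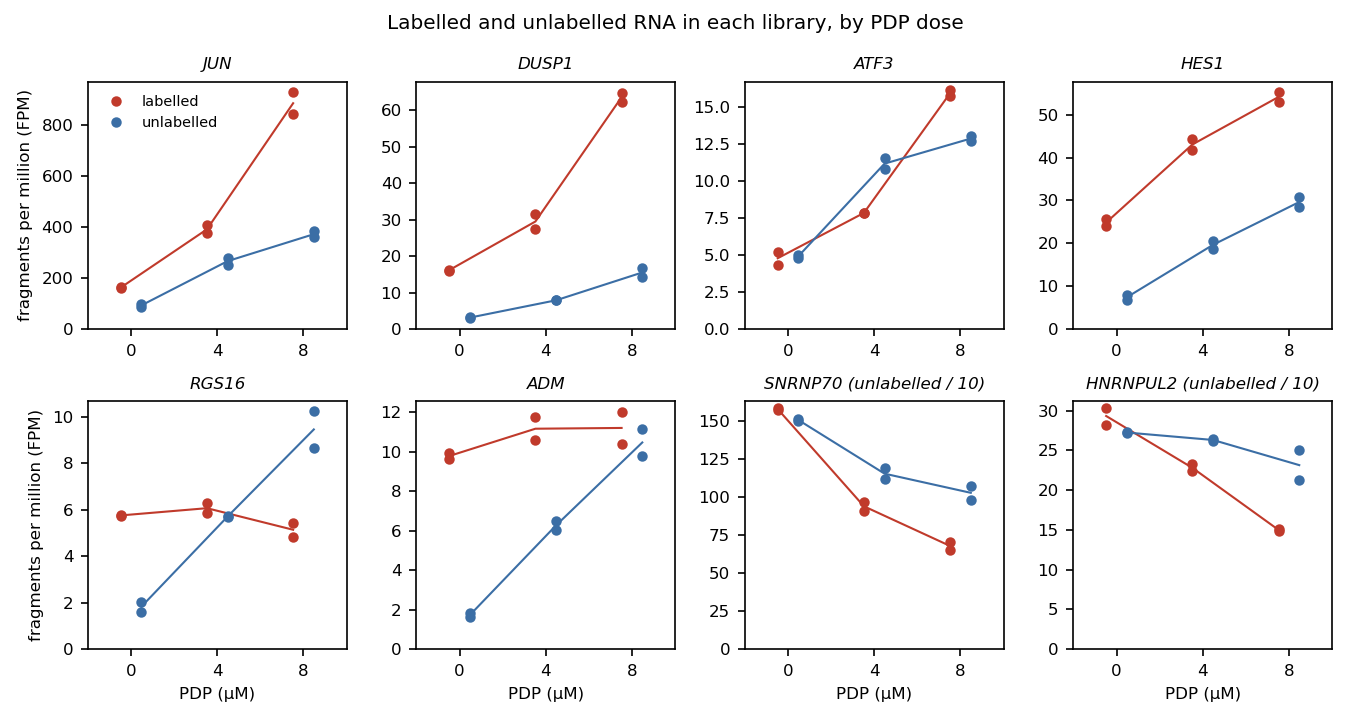
Labelled (red) and unlabelled (blue) RNA in FPM (y axis) of 8 genes by PDP dose (x axis, µM). Dots are single libraries and lines join the means of 2 libraries, and the unlabelled values of SNRNP70 and HNRNPUL2 are divided by 10. JUN, DUSP1, ATF3 and HES1 rise in labelled RNA from 4 to 8 µM, RGS16 and ADM rise in unlabelled RNA only, and SNRNP70 and HNRNPUL2 fall in labelled RNA.

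Promoter windows from RefSeq (GRCh38.p14, 250 bases before to 50 after the start) were matched by symbol for 33 of the 44 members tested and for 7 of the 9 that rose in any readout. They were searched on both strands for TGACGTCA, the cyclic AMP response element, its variant TGACATCA, the AP-1 site TGAGTCA and the CArG box. The window of *EGR1* held a further CArG box that is not shown. The following stretches hold 1 match for each of 5 members that rose. They are shown because they carry the letters that the share below counts, with the match in capitals.
JUN, chr1:58784102-58784119, minus strand: tggggTGACATCAtgggc
ATF3, chr1:212565279-212565296, plus strand: tgataTGACATCAtatgg
DUSP1, chr5:172771308-172771325, minus strand: gcgggTGACGTCAccgcc
JUND, chr19:18281810-18281827, minus strand: ccccaTGACGTCAaccca
EGR1, chr5:138465391-138465410, plus strand: gcttcCCATATATGGccatg
TGACGTCA was found in 3 of the 7 windows, those of *DUSP1*, *JUND* and *DUSP8*, in 4 of the 33 of the list, in 3.38% of the 9457 genes tested that were matched and in 1.98% of all 27305 windows. TGACATCA was found in 2, those of *JUN* and *ATF3*, in 1.45% of the genes tested and in 2.71% of all windows. The CArG box was found in the window of *EGR1*, in 0.983% of the genes tested and in 1.29% of all windows, and TGAGTCA in 0 of the 7, 2.68% of the genes tested and 4.92% of all. A match describes letters and not a site that is bound.

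Most of the other rises of labelled RNA were of weakly expressed genes that begin shortly after another gene ends. Of the 103 genes that rose, 63 (61.2%) had a tested gene on the same strand that ended within 10 kb upstream, against 120 of the 519 that fell (23.1%) and 17.5% of all genes tested. The share of genes whose labelled RNA rose was 3.90% where the upstream gene ended within 1 kb, 2.80% from 1 to 5 kb, 1.53% from 5 to 10 kb, 0.511% from 10 to 50 kb and 0.273% beyond. Among genes with under 5 FPM of labelled RNA, 55 of 1380 with such a neighbour rose (3.99%) and 22 of 6904 without (0.319%). Antisense and lincRNA genes made up 22.3% of the genes that rose and 7.19% of all. With TMM scaling the share near an upstream gene was 61.8%, and with a GC spline 66.7%. Among genes over the labelled filter at both doses, 52 of the 88 that rose (59.1%) had such a neighbour, against 17.3% of the 13916 tested.

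**Figure D3:**
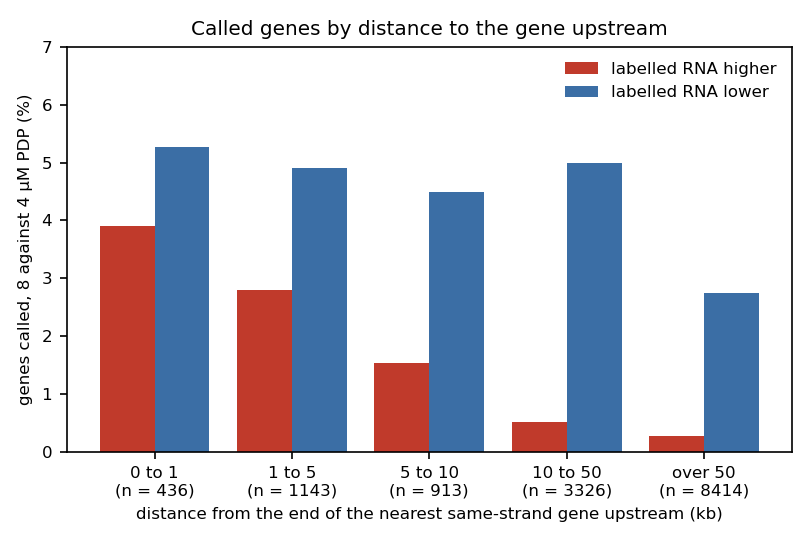
Share of genes called higher (red) or lower (blue) in labelled RNA between 8 and 4 µM PDP (y axis, percent) by the distance from the end of the nearest tested gene upstream on the same strand (x axis, kb, with the number of genes). The share called higher goes from 3.90% within 1 kb to 0.273% beyond 50 kb, and the share called lower from 5.28% to 2.75%.

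The largest of these rises was that of RP11-779O18.2, a pseudogene on chromosome 5 from 172189524 to 172190261 that begins 4831 bp after the end of *DUSP1*. Its labelled RNA was at 0.135 and 0.134 FPM with 4 µM and at 1.43 and 1.14 FPM with 8 µM, and its unlabelled RNA at 1.08 and 1.12 FPM against 1.03 and 1.20 FPM. The labelled share went from 11.1% and 10.7% to 58.2% and 48.8%, while both libraries without PDP were listed at 0 labelled fragments. With 4 µM it was under the labelled filter, so it was tested only through the 8 µM libraries. *FAM71A*, 3669 bp after *ATF3*, had labelled RNA at 0.541 and 0.851 FPM with 4 µM and at 2.19 and 1.52 FPM with 8 µM, and 0 in both libraries without PDP. *KIAA1683*, 5243 bp after *JUND*, went from 1.26 and 0.941 FPM to 3.35 and 2.504 FPM. In these 3 pairs the upstream gene rose too.

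In most pairs the upstream gene did not rise. Over the 63 pairs the median log2 fold change of labelled RNA was 1.02 for the downstream gene and -0.19 for the upstream gene, and the upstream gene rose in 5 pairs and fell in 7. RP11-46C24.5, a lincRNA on chromosome 16 from 89323587 to 89333938 that begins 99 bp after the chromatin regulator *ANKRD11*, was at 4.28 and 3.67 FPM with 4 µM and at 8.90 and 9.31 FPM with 8 µM, and at 0.512 and 0.284 FPM without PDP. Its log2 fold change was 1.19 ± 0.15 (SE), against -0.22 for *ANKRD11*. AC027307.3, 254 bp after the ribosomal protein gene *RPS15*, went from 2.84 and 2.73 FPM to 6.08 and 5.93 FPM, against a log2 fold change of -0.18 for *RPS15*. CTD-3032H12.2, a lincRNA 427 bp after the homeobox gene *IRX5*, went from 0.541 and 0.224 FPM to 1.39 and 1.80 FPM, and it too passed the filter only through the 8 µM libraries.

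LINC00641 starts 2235 bp after *HNRNPC*, and *APOE*, the apolipoprotein E gene, 2064 bp after *TOMM40*. LINC00641 was at 0.766 and 0.717 FPM of labelled RNA with 4 µM and at 2.28 and 1.80 FPM with 8 µM, while its unlabelled RNA was at 9.78 and 7.84 FPM and at 9.79 and 8.11 FPM. *APOE* was at 0.856 and 0.896 FPM of labelled RNA against 2.28 and 1.63 FPM, and at 9.10 and 8.55 FPM of unlabelled RNA against 8.63 and 6.69 FPM. In both genes labelled RNA passed the test and unlabelled RNA did not, and the labelled share of *APOE* rose from 8.60% and 9.48% to 20.9% and 19.6%. A fragment in such a gene may come from a transcript that starts at its own promoter or from the neighbour upstream, and the gene counts do not separate these.

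Unlabelled RNA, which also holds fragments of new RNA without a mismatch, rose for 17 genes and *C2orf48* was the gene that fell. Of the 17, 4 rose in labelled RNA as well. The labelled share fell for 11, which their choice by unlabelled RNA favours, and for 4.03% of all genes. *ADM*, which encodes the vasodilator peptide adrenomedullin on chromosome 11 from 10326227 to 10328944, had 6.49 and 6.05 FPM of unlabelled RNA with 4 µM and 11.1 and 9.80 FPM with 8 µM, a log2 fold change of 0.74 ± 0.14 (SE). Its labelled RNA was at 10.6 and 11.7 FPM with 4 µM and at 10.4 and 12.03 FPM with 8 µM, and these libraries overlapped. *RGS16*, a regulator of G protein signalling on chromosome 1 from 182567758 to 182573543, had 5.68 and 5.73 FPM of unlabelled RNA against 8.67 and 10.2 FPM, and 5.86 and 6.27 FPM of labelled RNA against 4.83 and 5.44 FPM. Without PDP its unlabelled RNA was at 2.05 and 1.61 FPM and its labelled RNA at 5.73 and 5.77 FPM. The labelled share of *RGS16* fell from 50.8% and 52.2% to 35.8% and 34.7% (edgeR adjusted p = 0.000306).

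Unlabelled RNA also rose, with no call in labelled RNA, for *SPRY1*, a feedback inhibitor of receptor tyrosine kinase signalling, for the transcription factor genes *SP9*, *ISL2* and *ZNF367*, and for *HOXA3*. Unlabelled RNA of *SPRY1* went from 8.20 and 9.41 FPM to 13.2 and 14.2 FPM, and that of *SP9* from 40.6 and 40.3 FPM to 52.7 and 61.1 FPM. For all 17 genes both libraries without PDP lay below both 4 µM libraries, an order that 75.4% of all genes tested had. Some of the 17 share reads or position. *HOXA3*, RP1-170O19.22 and RP1-170O19.23 overlap on the same strand, and so do *ZFP36L2* and *THADA*.

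These 17 genes had large labelled shares already without PDP. The median was 68.9% for the 16 of them with at least 20 fragments in each library without PDP, with a range of 57.0% to 85.0%, against 20.4% over the 12866 genes with that depth. Across all of these genes, the median change of unlabelled RNA from 4 to 8 µM went up with the labelled share measured without PDP, in libraries that the fit did not use. It was -0.04 for 973 genes with a share under 10%, -0.02 for 5275 from 10 to 20%, 0.03 for 5187 from 20 to 40%, 0.10 for 1163 from 40 to 60% and 0.21 for 268 genes at 60% or more. In the highest class 82.5% of the genes had a value above 0 and 14 rose, and in the lowest class 28.6% had a value above 0 and 0 rose (edgeR). Labelled RNA showed a smaller span over these classes, from -0.14 to -0.02. Without replicate 1 of 8 µM the median of the highest class was 0.18, and without replicate 2 it was 0.23.

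**Figure D4:**
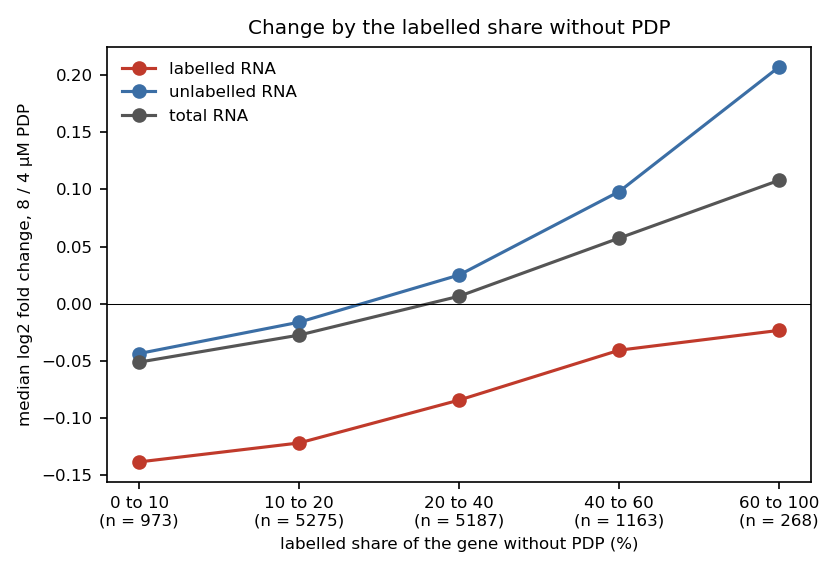
Median log2 fold change between 8 and 4 µM PDP (y axis) of labelled, unlabelled and total RNA, for genes grouped by their labelled share in the libraries without PDP (x axis, percent, with the number of genes). Unlabelled RNA goes from -0.04 in the lowest class to 0.21 in the highest, and labelled RNA from -0.14 to -0.02.

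In total RNA, 25 of the 26 rises were also rises of labelled RNA, among them *JUN*, *DUSP1*, *HES1*, *EGR1*, *ATF3* and genes downstream of others. The 2 falls were those of *C2orf48* and *MACROD1*, and the fall of *MACROD1* in total RNA was lost with a GC spline (edgeR adjusted p = 0.130). *C2orf48*, on chromosome 2 from 10281509 to 10351851, was at 18.0 and 16.7 FPM labelled and 73.2 and 67.6 FPM unlabelled with 4 µM, and at 13.9 and 13.1 FPM labelled and 55.0 and 54.6 FPM unlabelled with 8 µM, so that its labelled share stayed between 19.3% and 20.2%. The fall of *C2orf48* in labelled RNA was lost with TMM scaling (edgeR adjusted p = 0.218). Without PDP its unlabelled RNA was at 50.8 and 49.4 FPM, below both doses. *MACROD1*, which encodes a macrodomain hydrolase of ADP-ribose, fell from 49.2 and 47.7 FPM to 34.7 and 37.0 FPM in labelled RNA. Calls in total and unlabelled RNA depended on which 8 µM library was kept, and were most numerous with replicate 2 alone. With replicate 2 alone at 8 µM the median log2 fold change was -0.017 in total and -0.014 in unlabelled RNA. With replicate 1 alone it was 0.0005 and 0.021.

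The 519 falls of labelled RNA were mostly of protein-coding genes, which made up 96.3% of them against 87.1% of all genes tested. Their median labelled level was 31.7 FPM without PDP, 23.6 FPM with 4 µM and 18.4 FPM with 8 µM, and in 431 of the 519 both libraries without PDP lay above both 4 µM libraries, against 35.0% of all genes tested. The 4 µM libraries enter both of these comparisons. Their median labelled share went from 12.7% to 10.4%, closer to the background of libraries without s4U. Unlabelled RNA of these genes had a median log2 fold change of -0.05. Over the 4 libraries the median labelled level was 20.7 FPM for the genes that fell and 3.92 FPM for all genes tested. The genes that fell were not compared with other genes of the same level.

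*SNRNP70*, a protein of the U1 snRNP that recognizes splice sites, had the lowest p of the falls and was named after its values were seen. It lies on chromosome 19 from 49588676 to 49611862. Its labelled RNA was at 91.1 and 96.8 FPM with 4 µM and at 70.7 and 65.0 FPM with 8 µM, with 158 FPM in both libraries without PDP. The log2 fold change was -0.47 ± 0.08 (SE) with the library scale (edgeR adjusted p = 1.69e-06) and kept its call with TMM scaling (edgeR adjusted p = 0.00438) and a GC spline (edgeR adjusted p = 0.0115). *HNRNPUL2*, an RNA-binding protein on chromosome 11 from 62480102 to 62494821, was at 22.4 and 23.2 FPM against 14.8 and 15.1 FPM, a log2 fold change of -0.61 ± 0.10 (SE).

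*ZFPM1*, a cofactor of GATA factors, went from 33.8 and 32.1 FPM to 22.8 and 23.5 FPM of labelled RNA, with 53.4 and 48.6 FPM without PDP. *RBFOX3*, a neuronal splicing factor, went from 25.1 and 23.2 FPM to 14.3 and 18.4 FPM, and *SKI*, a corepressor of SMAD proteins, from 114 and 113 FPM to 81.7 and 89.0 FPM. *RRP1*, which acts in ribosomal RNA processing, was at 25.6 and 25.5 FPM and at 17.2 and 17.7 FPM. All 4 kept their call with TMM scaling and with a GC spline, and all 4 were named after their values were seen.

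The falls that were largest by fold were of weakly expressed genes. *GPC2*, a heparan sulfate proteoglycan of the cell surface, was at 1.08 and 1.21 FPM of labelled RNA with 4 µM and at 0.358 and 0.381 FPM with 8 µM, while its unlabelled RNA was between 5.22 and 5.81 FPM in all 4 libraries. *GABRD*, a subunit of the GABA-A receptor, was at 0.811 and 1.03 FPM against 0.358 and 0.272 FPM. *CRIP1*, a small LIM domain protein, was at 3.29 and 2.73 FPM against 1.21 and 1.74 FPM, and *RASSF7*, a RAS association domain protein, at 5.86 and 5.33 FPM against 3.62 and 3.16 FPM. With 8 µM *GPC2* and *GABRD* were under the labelled filter and passed it only through the 4 µM libraries. *GABRD* lost its call with TMM scaling (edgeR adjusted p = 0.101), and *GPC2* and *RASSF7* lost theirs with a GC spline (edgeR adjusted p = 0.0505 and 0.0555), while *CRIP1* kept it with both.

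The counts of falls in lists of housekeeping genes stand beside the 3.63% of all genes that fell. Lists and all genes were not matched for labelled level, which was higher in the genes that fell. Few of these calls were left with TMM scaling. Of 62 translation initiation and elongation factors, 9 fell (edgeR), *EIF4G1*, *EIF5B* and *EEF1D* among them, with a list median of -0.11 beside -0.09 over all genes, and with TMM scaling *EEF1D* alone passed. Of 34 SR proteins and hnRNPs, 7 fell, *HNRNPU*, *HNRNPAB*, *HNRNPM* and *HNRNPUL2* among them, and *SRSF7* rose, with a median of -0.16, and with TMM scaling *HNRNPUL2* alone fell. *HNRNPU* was at 190 and 186 FPM against 150 and 146 FPM of labelled RNA, and its labelled share fell from 8.13% and 7.89% to 6.88% and 6.78% (edgeR adjusted p = 1.68e-05). The background of libraries without s4U was 7.47% and 7.80% over all genes tested, so many of these fragments may be background mismatches.

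Of 66 genes of RNA polymerase II and the general transcription factors 6 fell, among them *NELFB* of the pausing factor NELF and *SUPT6H*, of 38 DNA replication genes 5, among them *LIG1*, *POLD1* and *POLE*, and of 83 cytosolic ribosomal protein genes 4, a share near that of all genes. Of 25 actin cytoskeleton genes 5 fell, *ACTB* among them, from 146 and 140 FPM to 121 FPM in both libraries. At 4 and 8 µM the median labelled share was 7.85% and 7.40% for the actin list and 8.51% and 8.02% for the ribosomal list. Both lie near the background of 7.47% and 7.80% in libraries without s4U. The polymerase and replication lists were higher, at 15.3% and 14.7% and at 13.4% and 13.2%. With TMM scaling 0 genes of the polymerase, ribosomal and actin lists and 1 replication gene, *LIG1*, passed. Among 381 records of *ZNF* genes, 15 fell and 1 rose, and the median was -0.07 with the library scale and 0.02 with TMM scaling, which shifted the median of all genes from -0.09 to about 0. Of 34 genes of the integrated stress and unfolded protein response, *ATF3* alone passed in labelled RNA, where 0.721% of all genes rose. Of 16 NRF2 pathway genes none passed.

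Replication-dependent histone genes have mRNAs that end without a poly(A) tail. The study isolated polyadenylated RNA before making the libraries, so these values cover only histone RNA that this step kept. Over the 35 such genes tested, the median log2 fold change of labelled RNA was 0.39, beside -0.09 over all genes. *HIST2H4A* and *HIST3H2BB* rose, 2 of the 35, where 0.721% of all genes rose. *HIST2H4A* was at 0.901 and 0.761 FPM against 1.79 and 2.07 FPM. *HIST3H2BB* was at 0.496 and 0.314 FPM against 1.48 and 0.708 FPM, so that it passed the filter only through the 8 µM libraries, and it lost its call with a GC spline (edgeR adjusted p = 0.0873) and with DESeq2's size factors (edgeR adjusted p = 0.0587). *HIST2H4A* has near-identical copies, so its counts are uncertain.

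The GC content of the transcript was related to the falls. Genes were ranked by GC content and divided into 5 classes of equal size. In the lowest class the median log2 fold change of labelled RNA was -0.003 and 11 genes fell, and in the highest class it was -0.19 and 328 fell. The 508 falls with a GC value had a median GC content of 60.8%, the rises one of 56.3% and all genes one of 49.2%. Over 13937 genes, which share the same 4 libraries, the rank correlation of the labelled change with GC content was -0.279, and that of the unlabelled change -0.169. With TMM scaling the medians of the lowest and highest class were 0.08 and -0.10, a shift shared by all genes. With a GC spline for each library 57 genes rose and 40 fell in labelled RNA, and the correlation with GC content was -0.0314. The spline was fitted to the GC trend of these same libraries, so it removes that trend by construction. A change with dose that follows GC content would be removed too.

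G-quadruplex motifs were counted as 4 runs of at least 3 G with 1 to 7 bases between them, on both strands of GRCh37. Genes that fell held a median of 17 motifs from 2000 bp upstream of the start to the end of the gene, genes that rose 7 and all genes 7. The median labelled change was -0.05 for 2978 genes without a motif within 2000 bp of the start and -0.16 for 1591 genes with 7 or more, and with TMM scaling it was 0.03 and -0.07. Within the highest class of GC content, it was -0.18 for 189 genes without a motif at the start and -0.20 for 743 genes with 7 or more, and 12.7% and 13.5% of these genes fell. In the class below the highest, it was -0.12 for 433 genes without a motif and -0.17 for 392 genes with 7 or more, and 2.54% and 6.63% fell. In the middle class the medians were -0.07 and -0.09, and 1.85% and 1.82% fell. In the class above the lowest they were -0.03 and -0.05. Within the lowest class the medians were 0.003 and -0.03. With a GC spline the medians were -0.08 without a motif at the start and -0.11 with 7 or more, and the rank correlation of the labelled change with the number of motifs in the gene was -0.055, against -0.131 without the spline. The spline also takes out any part of the motif relation that runs with GC content. Long genes and GC-rich genes hold more motifs, and the part of each property in the falls was not tested beyond these values.

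**Figure D5:**
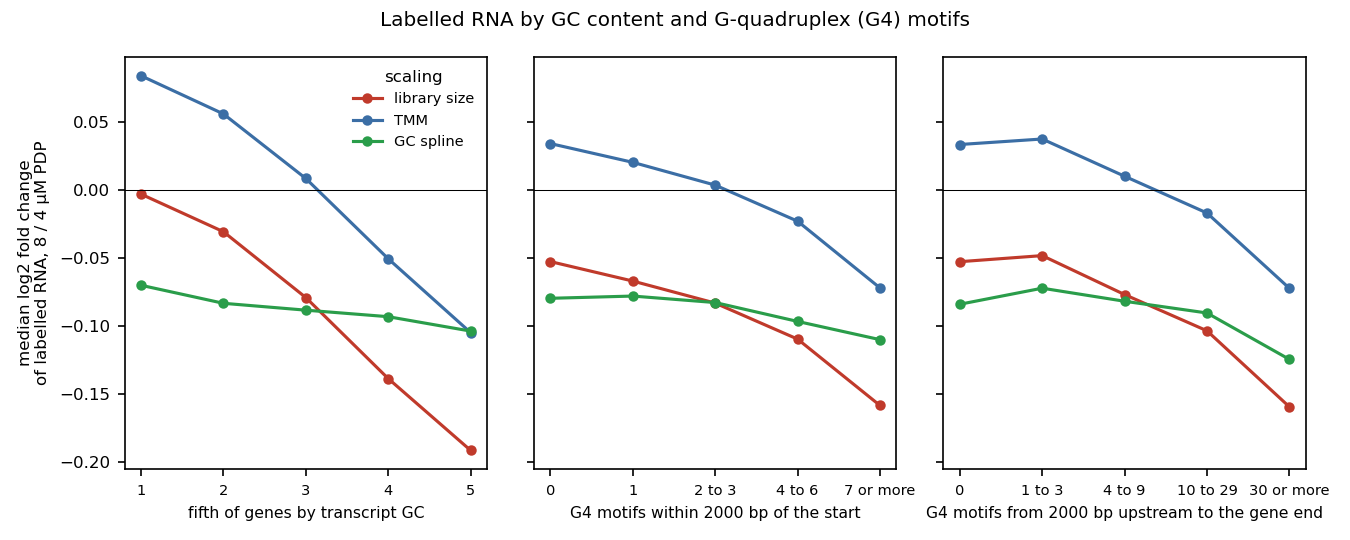
Median log2 fold change of labelled RNA between 8 and 4 µM PDP (y axis) by class of transcript GC content (left, 5 classes of equal size), by G-quadruplex motifs within 2000 bp of the start (middle) and from 2000 bp upstream to the gene end (right), with the library scale (red), TMM scaling (blue) or a GC spline for each library (green). With the library scale the medians go from -0.003 to -0.19 over the GC classes, with TMM scaling from 0.08 to -0.10 and with the GC spline from -0.07 to -0.10.

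In the RefSeq promoter windows, a G-quadruplex motif was found for 44.7% of the 387 genes that fell in labelled RNA and were matched, for 43.9% of the 57 that rose, for 35.6% of the 9457 genes tested that were matched and for 24.1% of all windows. The share was thus alike for rises and falls. The following stretches hold the motifs of 2 genes that fell and kept their call with TMM scaling, shown as examples of what was counted, with the motif in capitals.
HNRNPUL2, chr11:62727467-62727495, minus strand: GGGGGCGCCAGAGGGCGGGAGGAAGCGGG
RNF126, chr19:663438-663464, minus strand: GGGCAGCTTCGGGAGGGGAGGAGGGcc
These genes hold 4 and 16 motifs in the gene and its upstream region. *RNF126*, a ubiquitin ligase named after its values were seen, went from 50.6 and 54.0 FPM to 36.7 and 41.9 FPM of labelled RNA.

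Genes with well-known G-quadruplex promoters numbered 23 among those tested. Of these, 2, *TERT* and *HRAS*, fell in labelled RNA, where 3.63% of all genes fell. The labelled share fell for 6 of the 23, *TERT*, *HRAS*, *MYC*, *CCND1*, *MAZ* and *NKX2-5*, and for 4.03% of all genes. With TMM scaling it fell for *TERT* and *HRAS*, and for 0.476% of all genes. *TERT*, the catalytic subunit of telomerase, lies on chromosome 5 from 1253262 to 1295184. Its labelled RNA was at 15.5 and 15.1 FPM with 4 µM and at 10.3 and 10.9 FPM with 8 µM, with 24.4 and 22.6 FPM without PDP, and its unlabelled RNA was between 66.3 and 71.2 FPM in all 6 libraries. The log2 fold change of labelled *TERT* was -0.53 ± 0.12 (SE), with an edgeR adjusted p of 0.000905 on the library scale, 0.0216 with TMM scaling and 0.0505 with a GC spline. *HRAS*, a small GTPase, went from 10.3 and 11.5 FPM to 7.15 and 6.86 FPM, a log2 fold change of -0.64 ± 0.13 (SE). *MYC*, of the same list, did not pass in labelled RNA and rose in unlabelled RNA, as given above.

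*NOTCH3*, *AKT2*, *VEGFA*, *BAD* and *PIM2*, which the study also names, did not pass in any readout between these doses. The study named them for lower labelled RNA with PDP than in the control, by a fold threshold in all replicates. That is another comparison, with another threshold, than 8 against 4 µM here. *NOTCH3* was at 11.8 and 12.8 FPM of labelled RNA with 4 µM and at 10.3 and 10.5 FPM with 8 µM (edgeR adjusted p = 0.288), and *AKT2*, a serine/threonine kinase, at 24.6 and 24.0 FPM against 19.4 and 21.5 FPM (edgeR adjusted p = 0.121). *VEGFA*, the vascular growth factor, was at 10.8 and 12.7 FPM against 10.6 and 13.7 FPM, *BAD*, a pro-apoptotic BCL-2 protein, at 3.24 and 2.96 FPM against 2.86 and 3.54 FPM, and *PIM2*, a kinase, at 2.12 and 1.97 FPM against 1.97 and 1.69 FPM. Without PDP these 5 genes were at 18.6 and 20.0, 31.2 and 32.7, 22.8 and 20.4, 4.81 and 5.21, and 3.99 and 2.84 FPM in the same order, each above both doses. Of 28 Notch pathway genes, *HES1* rose and *NOTCH1*, *JAG2* and *HES4* fell in labelled RNA, where 0.721% of all genes rose and 3.63% fell. With TMM scaling *HES1* alone passed.

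The labelled share fell for 576 genes, of which 347 also fell in labelled RNA, which is 60.2% of the falls in share and 66.9% of the falls in labelled RNA. Leaving out replicate 1 or 2 of 4 µM gave 14 and 69 falls in share, and leaving out replicate 1 or 2 of 8 µM gave 189 and 821. The median share of the 576 was 21.1% without PDP, 15.7% with 4 µM and 12.3% with 8 µM, and in 548 of them both libraries without PDP lay above both 4 µM libraries, as they did for 69.5% of all genes tested. With TMM scaling within each kind of count, 68 genes fell and 20 rose in labelled share. *SPRY1*, *SP9*, *RGS16*, *ADM*, *SKI* and *ZFPM1* are among the 576, the first 4 with higher unlabelled RNA and the last 2 with lower labelled RNA.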

How the data were processed

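Libraries of HEK293T RNA with 2 replicates at each of 4 and 8 µM PDP were analysed, and the labelled libraries without PDP (2) and the acrylonitrile-treated libraries without s4U (2) served for values set beside them. The authors trimmed reads, removed duplicate reads and rRNA, aligned to GRCh37 and deposited counts per GENCODE v19 gene, for all fragments and for those with T-to-C mismatches. The submitters' processing notes name cutadapt 1.18 and HISAT2 2.1.0, and the counting tool and its strand setting are not given in the sources used here. The authors also deposited RPM values, called FPM here, which equal the count divided by the library size they give and scaled as reads per 1000000. Values of single genes in the text are these FPM values, and unlabelled RNA is total minus labelled fragments. A table of half-lives was not used.

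Counts were fitted with edgeR 4.0.16 (quasi-likelihood, R 4.3.3) with the authors' library sizes as the scale, for genes with a mean of at least 1 FPM in total and 0.5 FPM in labelled RNA, and p-values were adjusted by Benjamini-Hochberg over all 14280 genes, with a threshold of 0.05. The labelled share of a gene was tested as the dose term of labelled against unlabelled counts with the library as a block. TMM, DESeq2 1.42.0, limma 3.58.1 and a GC spline with 6 degrees of freedom for each library were alternatives. GC content was known for 97.6% of the genes. The scripts were tested on simulated data.

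In each readout, the 10 largest rises and falls among called genes with fragments in every library and without overlap between doses were named, with the genes the study names, up to 4 members of a list, the extremes of motif counts and the markers. *SOX4*, *ISL2*, *THADA*, *HOXA3*, *SNRNP70*, *HNRNPUL2*, *RBFOX3*, *ZFPM1*, *RRP1*, *SKI*, *IER5* and *RNF126*, and members of short counts beyond the rule, were chosen after their values were seen. The members and lists were chosen with earlier results of these data known. Some lists hold symbols with more than 1 gene record, and each record was counted.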

Additional observations from a re-analysis of the deposited data

How the results depend on the processing

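No named gene that was called changed direction under an alternative, while counts of calls moved. For total RNA, the counts of rises and falls (26 and 2 as reported) were 42 and 6 with TMM scaling, 9 rises with DESeq2, 14 falls with the libraries without PDP in the fit, 4 falls with limma at each of the pseudocounts 0.01, 0.1 and 1, and 3 and 0 without the filter on low values (1175 genes at an unadjusted p under 0.05). For labelled RNA (103 and 519), they were 14 and 1 with DESeq2, 57 and 40 with the GC spline, 57 falls with TMM scaling, 41 falls with DESeq2's size factors in edgeR, and 5 and 0 without the filter (2476 at an unadjusted p under 0.05). For unlabelled RNA (17 and 1), they were 9 and 0 with DESeq2 (270 at an unadjusted p under 0.05), 26 and 2 with TMM scaling, 2 falls with DESeq2's size factors in edgeR, 27 and 6 with the libraries without PDP, 11 and 0 with limma at a pseudocount of 0.01, 0 falls with limma at 0.1 and 1 (779 and 792 at an unadjusted p under 0.05), and 2 and 0 without the filter. For the labelled share (25 and 576), TMM scaling gave 68 falls, and the fit without the filter 6 and 105. The fit without the filter tested more genes, and the cause of the other moves was not tested. The GC spline, DESeq2 and limma were not run for the share.

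Leaving out 1 library at a time gave 20 to 122 rises and 2 to 281 falls in total RNA, 39 to 59 and 92 to 249 in labelled RNA, 11 to 132 and 0 to 250 in unlabelled RNA, and 4 to 25 and 14 to 821 in labelled share. The highest counts in total and unlabelled RNA came without replicate 1 of 8 µM, and a dose left with 1 library was assumed to vary like the other. The labelled share of the library differed by -1.10 to -0.4973 percentage points without 1 library and by -0.7827 over all annotated genes.

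Same-numbered libraries did not deviate together (correlation of their deviations -0.00933 to -0.00684). Whether they shared a culture or a batch is not given in the sources. With the replicate block, total RNA had 54 rises and 15 falls, labelled RNA 81 and 241, unlabelled RNA 40 and 8, and the labelled share 17 and 369.

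Of the comparisons of single named genes with an alternative, 1686 kept their side of the threshold and 1136 were no longer past it. Depth limits genes under 5 FPM of labelled RNA, whose folds rest on few fragments.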
